A study of Mus musculus with 3 samples.

Results

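Robo1, Robo2, Slit1, Slit2, Slit3 and Srgap1 are the receptors, ligands and a main cytoplasmic effector of the SLIT-ROBO guidance pathway, and they were taken by gene symbol as 6 of the 32285 genes counted in droplet single-cell RNA-seq of mouse embryonic kidney. Kidneys were collected at embryonic day E15.5, and each of 3 groups was 1 library. Enl-WT kidneys were Enl+/+ Wt1 GFPCre/+ and Enl-T1 kidneys were Enl flox-T1/+ Wt1 GFPCre/+, in which Cre recombinase switches on a Wilms tumour insertion mutant (T1) of the chromatin reader ENL from its own locus. Enl-T1 TDI-11055 kidneys had the Enl-T1 genotype, and their mothers were given TDI-11055, a blocker of the acyl-lysine pocket of ENL, by mouth at 100 mg/kg each day from E10.5 to E14.5. The labels list no treatment for the other groups. All 3 groups carry the Wt1-GFPCre allele, which takes the place of 1 Wt1 copy. Cre from it acts in nephron and stroma progenitors, and the study places the ureteric epithelium outside the Cre lineages. Kidneys of several embryos were pooled and no map from cells to embryos was used, so each group is 1 sample, no test between groups could be made, and the 95% intervals given here cover counting error only. A higher level per cell and a change in the kind of cells within a class cannot be told apart in such sums.

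SLIT proteins are secreted and bind the immunoglobulin domains of ROBO receptors on neighbouring cells. The receptors carry no enzyme activity of their own and act through bound proteins, among them the srGAP family, which switches off small GTPases, and through adaptors such as NCK. In the developing kidney SLIT2 and ROBO2 are known for confining the Gdnf-expressing mesenchyme so that a single ureteric bud forms from the nephric duct, and ROBO2 is also found in the podocyte foot process, where it meets nephrin through NCK.

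In the GENCODE M21 annotation of GRCm38, Robo1 (ENSMUSG00000022883) lies at chr16:72308306-73046095 on the plus strand and Robo2 (ENSMUSG00000052516) at chr16:73891839-74411825 on the minus strand. Slit1 (ENSMUSG00000025020) is at chr19:41600257-41743665, minus strand, Slit2 (ENSMUSG00000031558) at chr5:47983138-48307733, plus strand, and Slit3 (ENSMUSG00000056427) at chr11:35121224-35708507, plus strand. Srgap1 (ENSMUSG00000020121) is at chr10:121780991-122047315 on the minus strand. The summed exons of Slit2 span 25433 bases, those of Robo2 16983 and those of Robo1 16511, which places these 3 above 99% of genes. Srgap1 exons span 9132 bases, those of Slit3 6067 and those of Slit1 5921. Exonic length is given because long genes as a class had lower Enl-T1 over Enl-WT ratios here, so each main ratio is also stated against genes of like exonic length (the same of 10 equal bins).

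The sequences just upstream of the transcription start are shown for Slit2 and Robo2, the ligand and receptor with the most counts. The windows are 250 bases from RefSeq on GRCm38.p6, for Slit2 at chr5:47982905-47983154 on the plus strand and for the Robo2 start that matches the annotated gene at chr16:74411826-74412075 on the minus strand. Since the annotated Slit2 gene starts at 47983138, the last bases of its window lie in the first exon. Capitals in Slit2 mark a match to GCGNGGGCG, the 9-base zinc-finger motif bound by EGR1 and WT1, and capitals in Robo2 mark the E-box CAGCTG.
Slit2: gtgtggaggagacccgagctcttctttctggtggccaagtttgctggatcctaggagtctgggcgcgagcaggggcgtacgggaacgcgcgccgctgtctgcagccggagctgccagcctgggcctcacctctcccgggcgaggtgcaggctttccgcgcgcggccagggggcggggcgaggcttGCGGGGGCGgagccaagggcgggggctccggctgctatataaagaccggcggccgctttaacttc
Robo2: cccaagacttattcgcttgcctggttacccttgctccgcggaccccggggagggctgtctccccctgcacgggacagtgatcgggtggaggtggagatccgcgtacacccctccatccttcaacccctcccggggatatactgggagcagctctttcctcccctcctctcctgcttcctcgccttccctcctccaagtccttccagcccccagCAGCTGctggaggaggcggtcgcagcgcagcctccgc
Both strands were searched. GCGNGGGCG was found in 1543 of 32851 such windows of all genes, or 4.70%, and among the members also in Slit3. CAGCTG was found in 4271 windows, or 13.0%, and among the 5 members with a window in this Robo2 window alone, not in those of the other 2 Robo2 starts, at chr16:75447294-75447543 and chr16:75092771-75093020. The Robo1 and Srgap1 windows held neither motif, and Slit1 was not searched. The Robo1 window, at chr16:72662899-72663148, lies inside the annotated gene and not upstream of it. Most of the Slit3 window, at chr11:35121206-35121455, lies past the annotated Slit3 start. A match of this kind is a description of the letters.

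After the filter of the study, which keeps barcodes with 1000 to 6000 genes and at most 10% mitochondrial counts, 12131 of 20214 barcodes remained. They were 5233 from Enl-WT, 4144 from Enl-T1 and 2754 from Enl-T1 TDI-11055, or 72.8%, 63.0% and 42.7% of the barcodes of each library. In that order a kept cell had a median of 5090, 9391 and 16931.5 unique molecular identifiers (UMIs, counted transcripts). Depth thus rose from library to library over all kept cells, though not in every class. Library pairs shared 5 to 8 barcodes. Clustering without the members gave 15 named classes, and 878 cells in 6 clusters stayed unnamed. In 9 classes every library had at least 50 cells. NP1-like cells were nephron progenitors named from markers of the uncommitted state (NP1), and how many committed cells they held was not tested. They carried the NP1 markers at summed levels of 1137, 408 and 865 CPM (UMIs of a gene per 1000000 UMIs of the class). Of these markers, 8, 7 and 8 of 8 were at 10 CPM or more. Values given without a library name follow the same order, Enl-WT first and the treated library (Enl-T1 TDI-11055) last. The trunk markers stood at 5672, 6177 and 5564 CPM in ureteric trunk-like cells and the tip markers at 948, 701 and 1007 CPM in ureteric tip-like cells. Marker sums of the podocyte-like class (10633, 192 and 3333 CPM), the proximal tubule-like class (6335, 544 and 975 CPM) and the ureteric stroma-like class (3568, 501 and 174 CPM) differed far more, so levels in these classes are not compared as those of 1 cell type.

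Over kept cells Robo2 had 15863 UMIs, Slit2 9515, Srgap1 6983, Robo1 4475, Slit3 1127 and Slit1 408. In Enl-WT the members differed in where most of their UMIs lay. NP1-like cells, 16.1% of the library, held 45.6% of its Robo2 UMIs, and podocyte-like cells, 4.28% of the library, held 38.3% of them and 57.1% of its Srgap1 UMIs. Ureteric epithelium (tip-, trunk- and urothelium-like cells together, 29.4% of the library) held 46.0% of the Slit2 UMIs. Slit3 UMIs had their largest share in stroma, at 38.2%, and Slit1 UMIs in distal tubule/loop-like cells (distal tubule and loop of Henle precursors), at 42.5%, and NP1-like cells, at 31.6%. Robo1 was the most evenly spread, with its largest share, 22.0%, in distal tubule/loop-like cells. Levels are compared within a gene and not between genes, since they were counted from transcript 3′ ends.

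**Figure D1:**
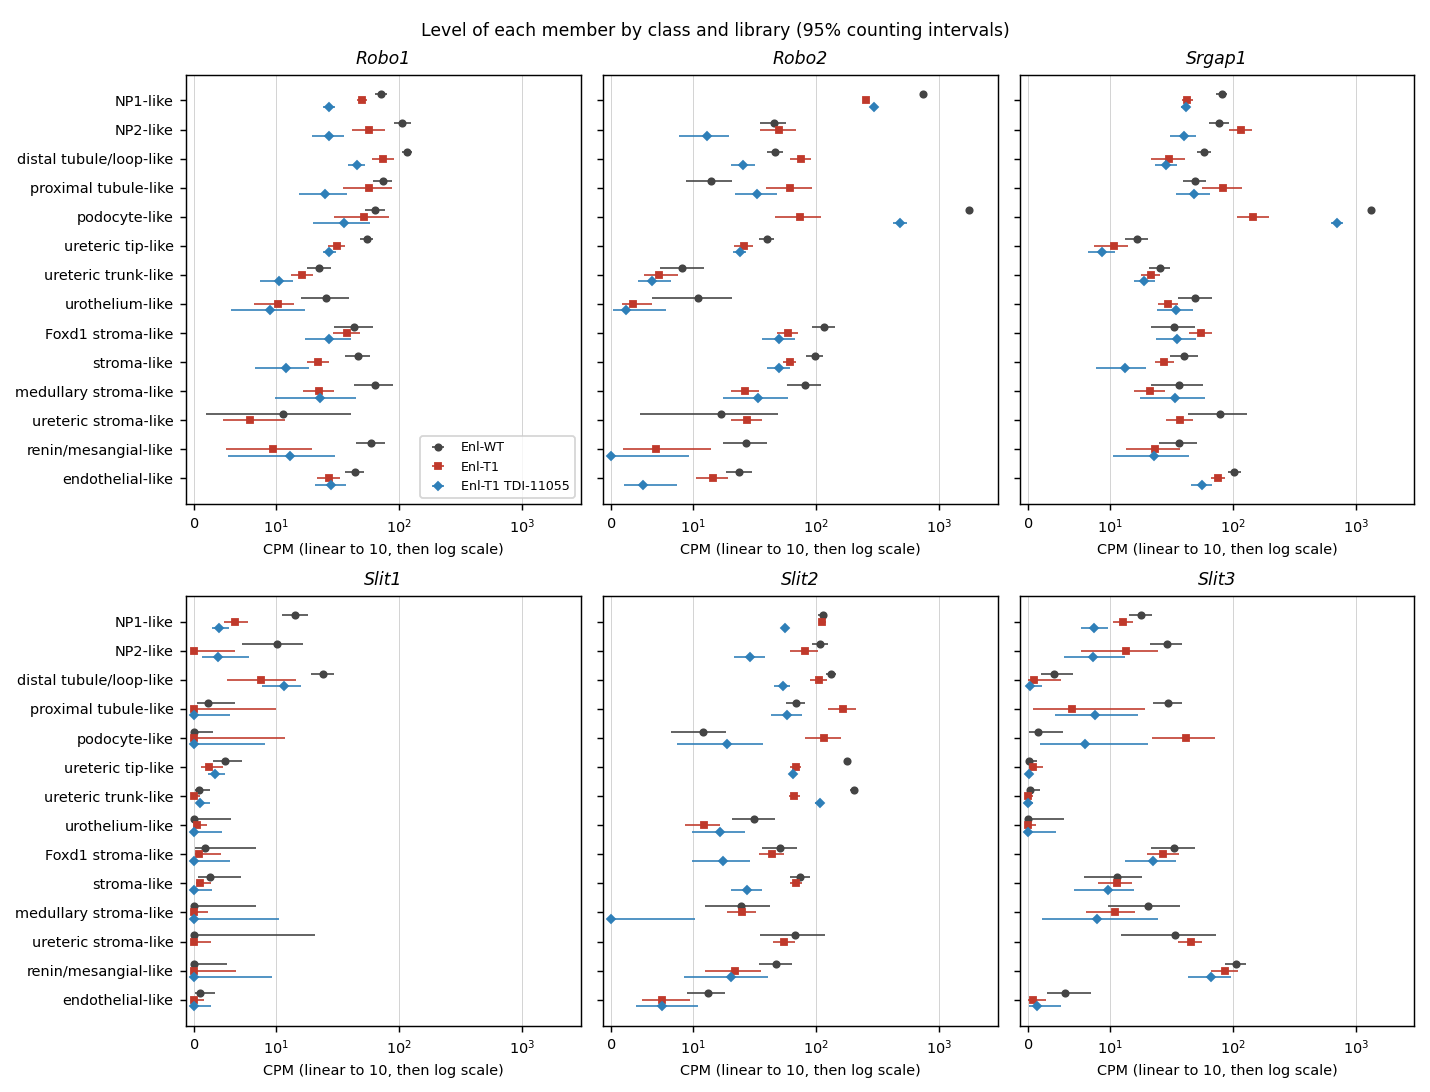
Level of each member (horizontal axis, CPM, linear to 10 and log above) by class and library, with 95% exact Poisson intervals, shown where a library has at least 20 cells of the class. In Enl-WT Robo2 is highest in podocyte-like and NP1-like cells and Slit2 in ureteric tip- and trunk-like cells, and Slit3 is highest in renin/mesangial-like cells in all 3 libraries.

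Robo2, the receptor that limits the Gdnf domain, stood at 746 CPM (95% interval 722 to 771; 3506 UMIs in 841 cells) in NP1-like cells of Enl-WT. The level was 256 CPM (246 to 266; 2406 UMIs in 774 cells) in Enl-T1 and 297 CPM (287 to 307; 3628 UMIs in 739 cells) in Enl-T1 TDI-11055. Enl-T1 was thus 0.343-fold of Enl-WT (0.326 to 0.361), and Enl-T1 TDI-11055 was 1.16-fold of Enl-T1 (1.10 to 1.22). The Enl-WT level lay far above both others, and the treated library lay nearer to Enl-T1 than to Enl-WT. The NP1 marker sum of the class was 1137, 408 and 865 CPM, and its part in these levels was not tested. On the log2 scale the first ratio was -1.54, against a median of -0.34 over all 9929 genes tested in these cells (genes at 5 CPM or more on average), which puts Robo2 1.20 below the median gene and 0.81 below the median of genes of like exonic length. The second log2 ratio was 0.21 against a median of 0.01, and it was -0.0073 when cells were limited to 1500 to 5000 genes and at most 5% mitochondrial counts, so its direction was not settled.

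Because class sums weight cells by their counts, the share of NP1-like cells with a Robo2 UMI was also taken after thinning every cell to 2000 UMIs. It was 68.6% (exact Clopper-Pearson interval 65.3% to 71.7%; 570 of 831 cells) in Enl-WT, 36.7% (33.3% to 40.2%; 283 of 772) in Enl-T1 and 30.5% (27.2% to 34.0%; 225 of 737) in Enl-T1 TDI-11055. Thinning left out 10, 2 and 2 shallower cells. Unthinned cells gave 86.4%, 80.6% and 65.5%, with median depths of 5084, 11344.5 and 18523 UMIs. In ureteric trunk-like cells, among the lowest of the named classes, the thinned share was 1.25% (median depth 4508 UMIs), 0.227% (10498) and 0.308% (16697). Each share comes from a single random draw, and that of Enl-T1 trunk-like cells rests on 1 of 441 cells. Over repeated draws the trunk-like mean was 1.82% in Enl-WT and 1.06% in Enl-T1. The shares in NP1-like cells lay well above this background. The order of Enl-T1 and Enl-T1 TDI-11055 by share went against their order by CPM, and no order is read from it.

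NP1-like cells comprised 4 clusters, and the one that held most of them differed between libraries. In Enl-WT the cluster led by Rspo3 and Cited1, markers of the least committed progenitors, held 357 of 841 cells, while in Enl-T1 the clusters led by Hist1h2bc (228 cells) and by the S-phase gene Rrm2 (220 cells) were the largest. The Cited1 cluster had the highest Robo2 level of the 4 in every library, at 1142 CPM in Enl-WT (1089 to 1196), 451 CPM in Enl-T1 (421 to 482) and 503 CPM in Enl-T1 TDI-11055 (481 to 525). The S-phase cluster gave 595, 211 and 251 CPM, the Hist1h2bc cluster 367, 183 and 162 CPM, and the mitotic cluster led by Ube2c 609, 223 and 143 CPM. Enl-T1 over Enl-WT was below 1 for Robo2 in 4 of 4 clusters, with ratios from 0.354 to 0.498. Enl-T1 TDI-11055 over Enl-T1 ran from 0.642 to 1.19 and was below 1 in 2 of the 4. An unnamed nephron-lineage cluster led by Sst and Akap12, mostly of Enl-T1 (39, 222 and 15 cells), had 290.2, 173 and 103 Robo2 CPM.

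**Figure D2:**
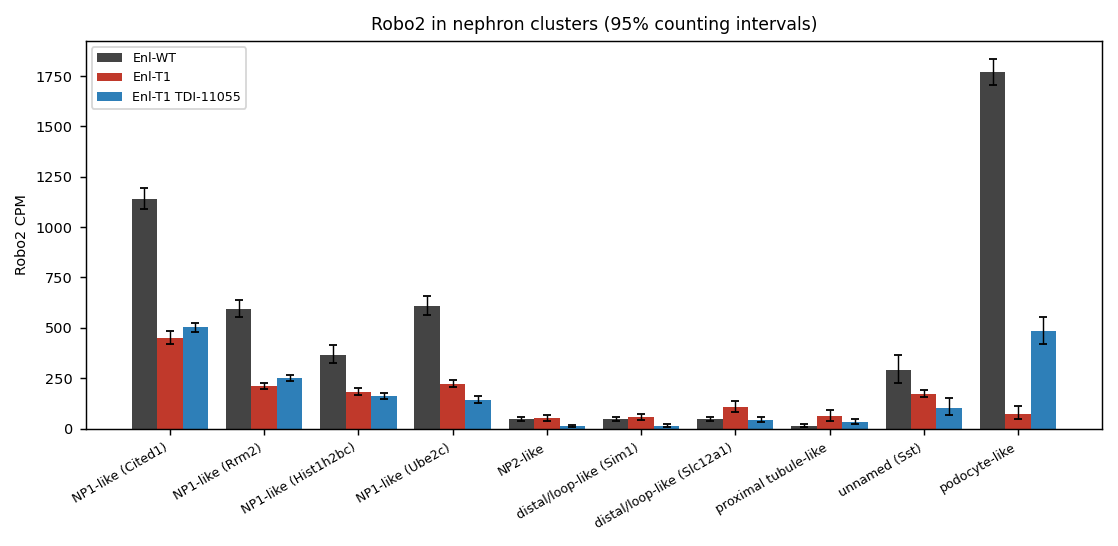
Robo2 level (vertical axis, CPM, from 0) in nephron-lineage clusters of the 3 libraries, with a leading gene in brackets and 95% counting intervals as error bars. In each of the 4 NP1-like clusters the Enl-WT bar is the tallest, from 367 to 1142 CPM, and the Enl-T1 bar stands between 183 and 451 CPM.

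Robo2 levels were far lower in NP2-like and distal tubule/loop-like cells than in NP1-like cells in all 3 libraries. NP2-like cells, committed progenitors that express Wnt4 and Lhx1, had 45.1 CPM (35.2 to 56.9) in Enl-WT, 49.98 CPM (35.2 to 68.9) in Enl-T1 and 13.1 CPM (8.30 to 19.6) in Enl-T1 TDI-11055. The treated NP2-like cells were the shallowest, with median depths of 7095, 13543.5 and 5343.5 UMIs in 209, 54 and 194 cells. The part of this depth in the NP2-like levels was not tested. Distal tubule/loop-like cells had 46.2 CPM (39.6 to 53.6), 74.9 CPM (61.1 to 91.0) and 25.7 CPM (20.5 to 31.8). Here the order of the untreated libraries was opposite to that in NP1-like cells, with Enl-T1 1.62-fold of Enl-WT (1.26 to 2.08) and Enl-T1 TDI-11055 0.342-fold of Enl-T1 (0.253 to 0.462). The excess over Enl-WT lay mainly in the more differentiated Slc12a1 cluster of that class, at 46.5, 105 and 42.7 CPM, since the Sim1 cluster had 46.0, 54.8 and 13.6 CPM with overlapping intervals for Enl-WT and Enl-T1. The distal marker sum of the class was 2148, 845 and 1058 CPM, and its part in these levels was not tested.

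Foxd1 stroma-like cells, the cortical stroma progenitors, had Robo2 at 116 CPM (92.4 to 143) in Enl-WT, 59.1 CPM (48.1 to 71.9) in Enl-T1 and 50.4 CPM (36.5 to 67.9) in Enl-T1 TDI-11055. Enl-T1 was 0.512-fold of Enl-WT there (0.380 to 0.691), and the intervals of both Enl-T1 libraries overlapped. Cycling and other stroma-like cells had 97.5, 61.3 and 49.8 CPM, within the counting intervals of the Foxd1 stroma-like levels. Medullary stroma-like cells had 81.2, 26.7 and 34.0 CPM, with 28 cells in the treated library. Levels in endothelial-like cells were 23.8, 14.4 and 3.91 CPM and in ureteric tip-like cells 39.9, 26.0 and 24.0 CPM. Among the lowest levels were those in ureteric trunk-like cells, at 8.68, 5.79 and 5.01 CPM, and urothelium-like cells, at 10.9, 2.69 and 1.86 CPM from 9, 10 and 2 UMIs. Relative to all genes, Robo2 was past 1.5-fold lower in Enl-T1 in 3 of the 9 classes with at least 50 cells per library (NP1-like, Foxd1 stroma-like and urothelium-like) and past 1.5-fold higher in distal tubule/loop-like cells. In urothelium-like cells Robo2 passed the 5 CPM limit through Enl-WT alone, at 10.9 against 2.69 CPM, so it could be counted as lower but not as higher there.

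The podocyte-like cluster gave the highest Robo2 level of any class in Enl-WT, at 1769 CPM (1706 to 1834; 2945 UMIs in 224 cells). In Enl-T1 the cells placed in this cluster had 73.5 CPM (46.6 to 110.3; 23 UMIs in 41 cells), and in the treated library they had 483 CPM (419 to 553; 206 UMIs in 29 cells). The Enl-T1 cells went against the name. Of the 8 podocyte markers a median of 0 had a UMI per cell, 21 of the 41 cells had none, and no cell had more than 3. Podxl, the podocyte sialoprotein, was at 3.20 CPM in Enl-T1 against 2972 CPM in Enl-WT and 427 CPM in Enl-T1 TDI-11055. Cells with at least 4 of the 8 markers numbered 179 in Enl-WT, 13 in the treated library and 0 in Enl-T1, a limit set after the levels were seen. In those cells Robo2 stood at 1903 CPM (1834 to 1974) in Enl-WT and 618 CPM (518 to 733) in the treated library. The fewer podocyte-like cells and the lower Robo2 level of the cells in this cluster therefore cannot be told apart in Enl-T1.

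Srgap1, the GTPase-activating protein that binds the tail of ROBO receptors, was also highest in this cluster. It had 1320.4 CPM (1266 to 1377) in Enl-WT, 147 CPM (108 to 196) in Enl-T1 and 710.1 CPM (632 to 795) in Enl-T1 TDI-11055. In cells with at least 4 markers Srgap1 was at 1372 CPM (1314 to 1433) in Enl-WT and 1025 CPM (894 to 1169) in the treated library, a smaller gap than that of Robo2 in the same cells. The limit was not adjusted for depth, which had a median of 5485.5 UMIs in Enl-WT and 14180 in the treated cells of the cluster. Over the whole cluster the median marker counts were 8 in Enl-WT and 3 in the treated library. The cells with at least 4 markers may also differ in kind, which was not tested. Podocyte-like cells with under 4 markers had 828, 147 and 386 Srgap1 CPM and 508, 73.5 and 343 Robo2 CPM. Its close relative Srgap2 had 132, 12.8 and 30.5 CPM over the whole cluster. Slit2 showed the opposite order, with 12.0 CPM (7.34 to 18.6), 115 CPM (80.6 to 159) and 18.7 CPM (8.09 to 36.9).

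**Figure D3:**
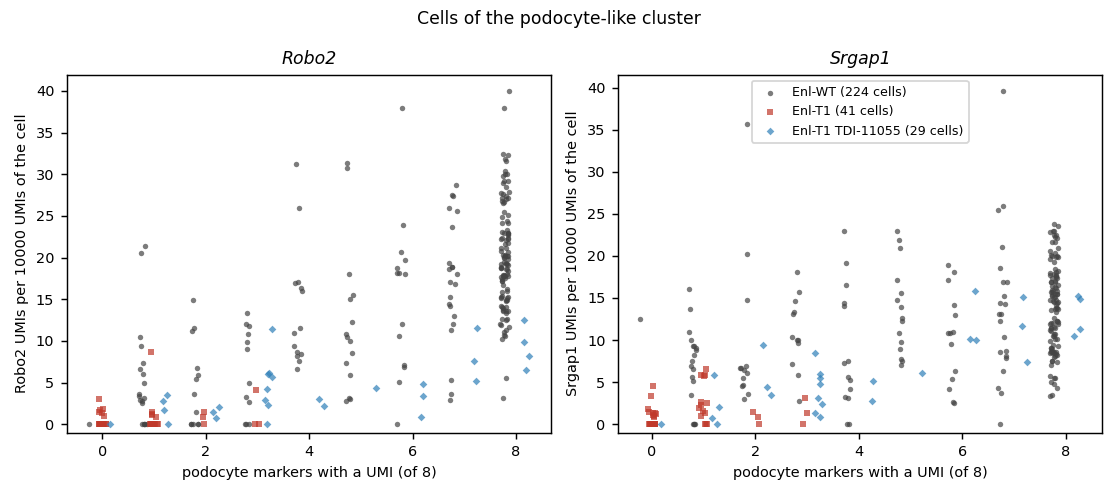
Each point is 1 cell of the podocyte-like cluster, by the number of podocyte markers with a UMI (horizontal axis, of 8) and its Robo2 or Srgap1 UMIs per 10000 UMIs (vertical axis), with small sideways scatter. Enl-T1 cells have 0 to 3 markers, while most Enl-WT cells have 8 and the treated cells are spread from 0 to 8.

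Outside podocyte-like cells Srgap1 ranged less. NP1-like cells had 81.5 CPM (73.6 to 90.1), 42.7 CPM (38.6 to 47.1) and 41.5 CPM (38.0 to 45.3) in the 3 libraries. The Enl-T1 over Enl-WT ratio was 0.523 (0.454 to 0.604), below 1 in 4 of 4 NP1-like clusters (0.469 to 0.625), and on the log2 scale it was 0.59 below the median gene but 0.30 below genes of like length. The treated library did not differ from Enl-T1 beyond counting error, at a ratio of 0.974 (0.852 to 1.11). NP2-like cells had 77.5, 116 and 39.8 CPM and Foxd1 stroma-like cells 33.6, 55.0 and 35.2 CPM, so that in both Enl-T1 was the highest. The Enl-T1 over Enl-WT ratio was 1.499 (1.12 to 1.99) in NP2-like and 1.64 (1.04 to 2.66) in Foxd1 stroma-like cells. Within the 2 clusters of the Foxd1 stroma-like class, which held 139 and 43 cells in Enl-WT and 102 and 112 in Enl-T1, the ratio was 1.22 (0.617 to 2.54) and 1.21 (0.634 to 2.53), and both intervals include 1. Endothelial-like cells, which carry the vascular receptor Robo4, had 103, 76.0 and 55.9 Srgap1 CPM. Ureteric tip-like cells had the lowest level among the 9 larger classes in every library, at 16.6, 10.9 and 9.06 CPM.

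Robo1, the second widely expressed receptor, was highest in distal tubule/loop-like cells, at 116 CPM (105 to 128) in Enl-WT, 74.2 CPM (60.4 to 90.1) in Enl-T1 and 44.9 CPM (37.9 to 52.8) in Enl-T1 TDI-11055. The Sim1 cluster of that class had 151, 101 and 55.9 CPM and the Slc12a1 cluster 67.9, 33.3 and 29.4 CPM. NP2-like cells had 106, 56.7 and 26.8 CPM, and NP1-like cells had 70.7 CPM (63.3 to 78.7), 49.6 CPM (45.2 to 54.3) and 27.0 CPM (24.2 to 30.1). In each of these 3 classes Enl-WT was the highest and the treated library the lowest, with no overlap of the counting intervals. Across the 9 classes with at least 50 cells per library, Enl-T1 over Enl-WT was below 1 in 9 (0.402 to 0.866) and Enl-T1 TDI-11055 over Enl-T1 in 8 (0.472 to 1.04). Relative to the median gene, which was itself below 1 in the first comparison, Robo1 was past 1.5-fold lower in 3 and 5 of the 9. Unlike Robo2, Robo1 was not set apart from the median gene in NP1-like cells of Enl-T1, at 0.17 below it on the log2 scale and 0.22 above genes of like length. Renin/mesangial-like cells had 59.2, 9.54 and 12.8 Robo1 CPM from 55, 7 and 5 UMIs, with the marker sum of that class at 5686, 2165 and 1549 CPM.

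Slit2, the ligand with the most counts, was highest in the ureteric tip and trunk in Enl-WT. Over the whole ureteric epithelium, urothelium-like cells included, its level was 176 CPM (168 to 185; 1719 UMIs in 1537 cells) in Enl-WT, 52.9 CPM (49.2 to 56.9; 748 UMIs in 1062 cells) in Enl-T1 and 75.5 CPM (71.4 to 79.7; 1288 UMIs in 915 cells) in Enl-T1 TDI-11055. Enl-T1 was 0.3002-fold of Enl-WT (0.275 to 0.327), a log2 ratio of -1.74 that was 1.43 below the median of all genes and 1.06 below genes of like exonic length. Enl-T1 TDI-11055 was 1.43-fold of Enl-T1 (1.30 to 1.56), 0.50 above the median gene. The cells of these classes lie outside the Cre lineages, and the Enl-WT level exceeded both others without overlap.

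The 3 parts of the ureteric epithelium differed in the second comparison. Ureteric trunk-like cells, the future collecting duct, had 203 CPM (189 to 218), 66.6 CPM (60.0 to 73.8) and 108 CPM (98.9 to 117), with the treated library 1.61-fold of Enl-T1 (1.41 to 1.85). Ureteric tip-like cells, the branching front, had 179.5 CPM (168 to 192), 68.4 CPM (61.3 to 76.1) and 65.2 CPM (60.4 to 70.3), with a ratio of 0.953 (0.835 to 1.09). Urothelium-like cells had low levels of 31.4, 12.4 and 16.7 CPM, and they made up 145 of 1537, 258 of 1062 and 60 of 915 cells of the sum. The pooled ratios of both comparisons therefore also carry a change in the share of urothelium-like cells, and the part of each was not tested. Among the 9 larger classes the lowest Enl-T1 over Enl-WT ratio of Slit2 was 0.327, above that of the pooled ureteric sum.

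Enl-T1 over Enl-WT was below 1 for Slit2 in the 9 named ureteric clusters and an unnamed one, with ratios from 0.308 to 0.757. A further unnamed cluster, led by the stromal genes Vcan and Col3a1, was left out of this count and had a ratio of 0.607, and the smallest unnamed cluster had too few cells. The highest levels were in an unnamed cluster led by Tm4sf20, Lix1 and Wnt6, at 361 CPM (312 to 415), 111 CPM (87.3 to 140) and 111 CPM (95.6 to 128), and in the trunk-like cluster led by Opcml, at 323, 124 and 154 CPM. The Aqp2 cluster, cells with the collecting-duct water channel, had 213, 68.1 and 96.2 CPM, while the trunk-like cluster led by Tmem213 had 80.7, 28.1 and 28.5 CPM. The tip-like cluster led by Wnt11 had 149.8, 62.4 and 52.5 CPM. Enl-T1 TDI-11055 over Enl-T1 ran from 0.752 to 1.72 over the 9 clusters with enough cells and was below 1 in 4.

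**Figure D4:**
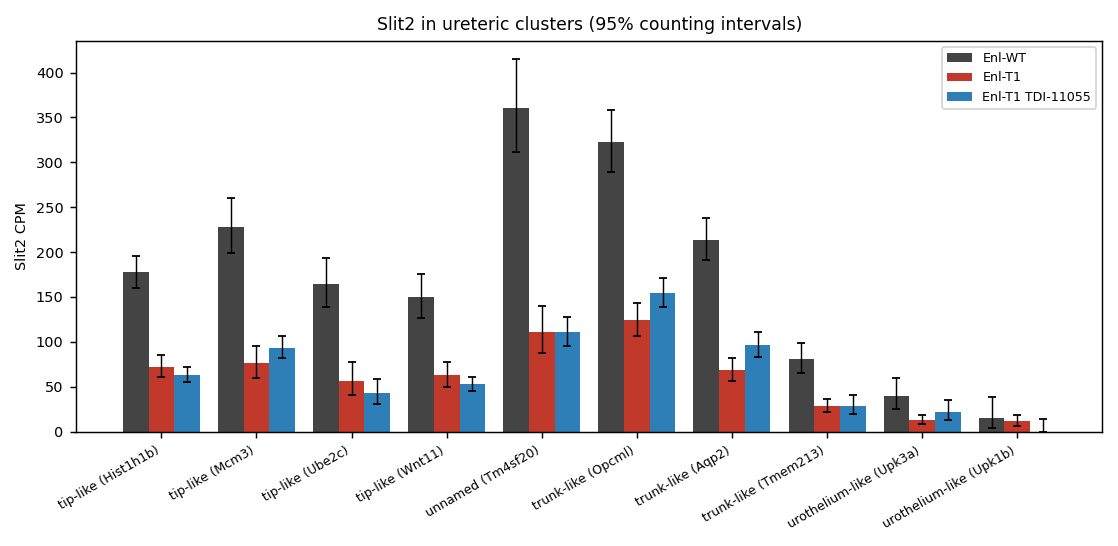
Slit2 level (vertical axis, CPM, from 0) in the ureteric clusters with a leading gene in brackets, by library, with 95% counting intervals as error bars. The Enl-WT bar is the tallest in each cluster, and the intervals of both Enl-T1 libraries overlap in tip-like clusters, while the treated bar is the higher in the Opcml and Aqp2 clusters.

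In cells of the Cre lineages Slit2 showed another pattern, with the treated library lowest in NP1-, NP2-, distal tubule/loop-like cells and stroma, though not in the podocyte-like cluster. In Enl-T1 its level in NP1-like and distal tubule/loop-like cells stood above that in ureteric tip-like cells, the opposite of the order in Enl-WT. NP1-like cells had 113 CPM (104 to 123) in Enl-WT, 113 CPM (106 to 120) in Enl-T1 and 55.8 CPM (51.7 to 60.1) in Enl-T1 TDI-11055. The Enl-T1 over Enl-WT ratio was 0.996 (0.897 to 1.11), and the treated library over Enl-T1 was 0.495 (0.449 to 0.546), below 1 in 4 of 4 NP1-like clusters (0.314 to 0.693). NP2-like cells had 109, 81.0 and 29.0 CPM, with a second ratio of 0.358 (0.242 to 0.529) and with the treated cells the shallowest of the class. Distal tubule/loop-like cells had 133, 105 and 53.4 CPM, where the stricter cell filter turned the second log2 ratio from -0.97 to 0.17. In stroma as a whole the levels were 56.9 CPM (49.7 to 64.9), 50.4 CPM (46.3 to 54.8) and 21.2 CPM (16.6 to 26.7), with a second ratio of 0.421 (0.325 to 0.538). Endothelial-like cells were near the bottom at 13.1, 6.26 and 6.15 CPM.

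Slit3 had its highest level among the named classes in renin/mesangial-like cells in all 3 libraries. Renin/mesangial-like cells, the perivascular cells that make renin and the glomerular mesangium, had 106 CPM (85.7 to 129), 85.8 CPM (65.9 to 110.3) and 66.6 CPM (43.5 to 97.5), with overlapping intervals and 98, 63 and 26 UMIs. Within them the Ren1 cluster had 144, 95.6 and 59.4 CPM. Foxd1 stroma-like cells had 33.6, 27.2 and 22.3 CPM and ureteric stroma-like cells 33.7, 45.6 and 30.7 CPM. Nephron-lineage cells also carried Slit3, with 17.9, 12.9 and 8.01 CPM in NP1-like, 29.2, 13.5 and 7.97 CPM in NP2-like and 29.7, 5.38 and 8.26 CPM in proximal tubule-like cells, the last from 53, 2 and 7 UMIs. The unnamed cluster led by Sst had 96.7, 46.7 and 25.7 CPM. In Enl-WT the NP1-, NP2- and proximal tubule-like cells held 20.4%, 11.2% and 12.9% of the Slit3 UMIs. Over all stroma Slit3 stood at 40.2 CPM (34.2 to 47.0), 24.3 CPM (21.5 to 27.4) and 19.8 CPM (15.4 to 25.1). The Enl-T1 over Enl-WT ratio of this sum was 0.604 (0.494 to 0.740), but the stromal classes entered it in unequal numbers, since renin/mesangial-like cells were 180 of 849, 91 of 1389 and 23 of 268. Within the single classes the ratio was 0.813 (0.583 to 1.13) in renin/mesangial-like, 0.810 (0.487 to 1.38) in Foxd1 stroma-like and 0.991 (0.569 to 1.80) in stroma-like cells. It was 0.538 (0.250 to 1.26) in medullary stroma-like cells and 1.35 in ureteric stroma-like cells, the latter with 6 Enl-WT UMIs. The interval of each of these classes includes 1. In the Ren1 cluster the ratio was 0.666 (0.447 to 0.981), which leaves out 1, and in the other renin/mesangial-like cluster it was 1.24 (0.648 to 2.37). The part of class numbers and of levels within classes in the pooled ratio was not tested. Enl-T1 TDI-11055 over Enl-T1 in all stroma was 0.814 (0.614 to 1.07), and it turned to 0.16 on the log2 scale under the stricter cell filter. The ureteric epithelium had 2, 3 and 1 Slit3 UMIs in all, at most 0.212 CPM.

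Slit1 was the sparsest member. Distal tubule/loop-like cells had 23.9 CPM (19.2 to 29.4; 90 UMIs) in Enl-WT, 8.08 CPM (4.03 to 14.46; 11 UMIs) in Enl-T1 and 11.6 CPM (8.21 to 15.9; 38 UMIs) in Enl-T1 TDI-11055. NP1-like cells had 14.3 CPM (11.1 to 18.1), 4.90 CPM (3.58 to 6.53) and 3.03 CPM (2.13 to 4.17) from 67, 46 and 37 UMIs. Enl-T1 was 0.338-fold (0.163 to 0.634) and 0.343-fold (0.231 to 0.507) of Enl-WT in these classes. In NP2-like cells the libraries had 16, 0 and 5 UMIs. Stroma had 4, 4 and 0 UMIs and podocyte-like cells had none, so no difference was detectable there at this depth.

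Within a class the members were read against all genes, with a member counted as lower or higher when its ratio lay at least 1.5-fold from the median gene. In NP1-like cells, Enl-T1 over Enl-WT, all 6 members were measurable and 3 were lower (Robo2, Slit1 and Srgap1) and 0 higher, where 13.8% of all genes were lower and 13.7% higher. Slit1 passed the limit of 5 CPM on average through Enl-WT alone, at 14.3 against 4.90 CPM in Enl-T1. A gene that enters this way can be counted as lower but not as higher. Against genes of like exonic length Robo2 and Slit1 stayed past 1.5-fold lower, and Srgap1 did not. Enl-T1 TDI-11055 over Enl-T1 had 3 of 5 lower (Robo1, Slit2 and Slit3) and 0 higher, against 7.62% and 5.84% of all genes. The receptor Robo2 was thus among the lower genes in the first comparison and the ligand Slit2 in the second. In ureteric epithelium 3 of 4 were lower in Enl-T1 (Robo1, Robo2 and Slit2) against 10.47% lower and 13.3% higher over all genes, and 0 of 4 were lower or higher in the treated comparison against 10.4% and 7.77%. Of those 3, Slit2 was also lower within tip-like and within trunk-like cells, whereas Robo1 and Robo2 were within 1.5-fold of the median gene in both. In stroma 1 of 5 was lower in Enl-T1 (Robo1) against 12.7% lower and 14.4% higher, and 1 of 5 was lower in the treated comparison (Slit2) against 12.9% and 9.98%. The shared Enl-T1 library enters both comparisons, so their values are not independent.

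**Figure D5:**
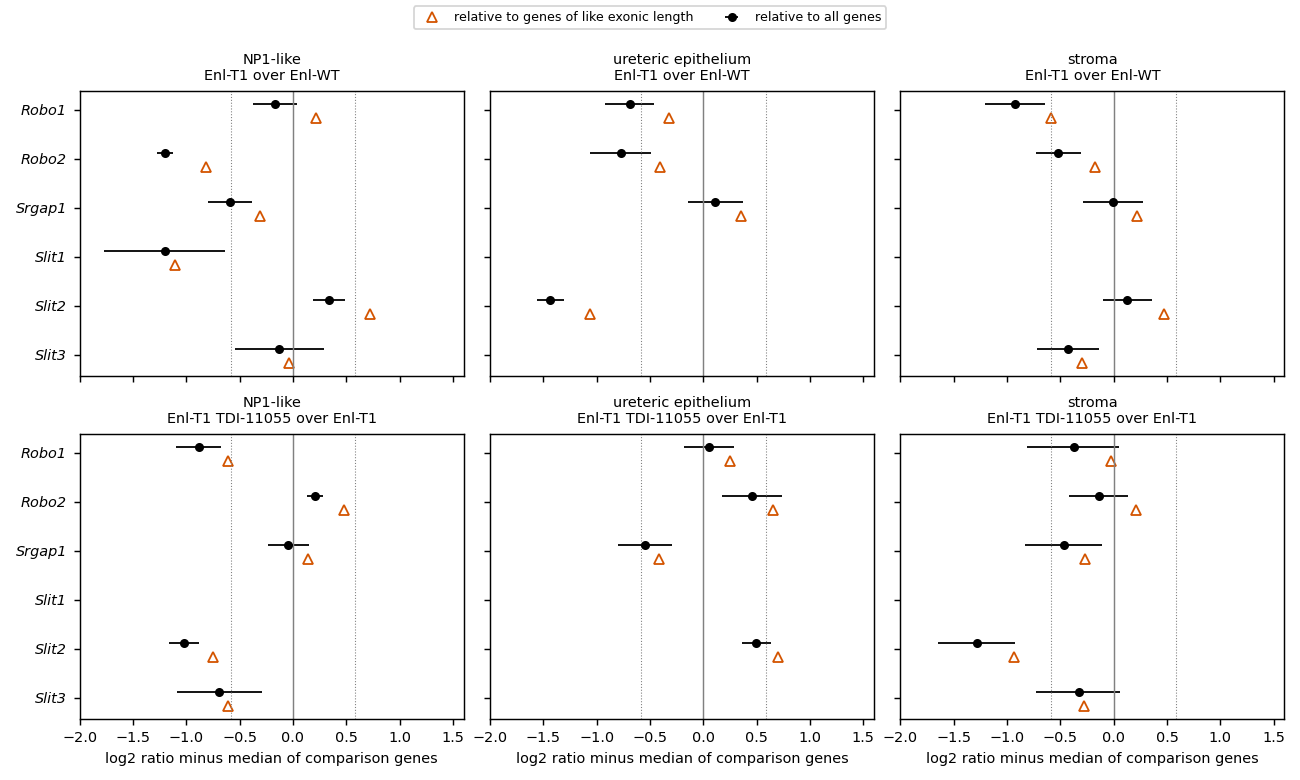
Log2 ratio of each member minus the median of all genes tested (points, with 95% counting intervals) or of genes in the same of 10 bins of exonic length (triangles) in NP1-like cells, ureteric epithelium and stroma, with dotted lines at 1.5-fold and members under 5 CPM left out. Robo2 in NP1-like cells and Slit2 in ureteric epithelium lie to the left of the dotted line on both scales in the Enl-T1 over Enl-WT row.

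Of 20 further genes of the pathway (other ROBO and srGAP proteins, adaptors, GTPases and co-receptors), 17 were measurable in NP1-like cells for Enl-T1 over Enl-WT. Of these, 2 were higher (Nck1 and Dcc) and 6 lower (Srgap2, Arhgap39, Abl1, Enah, Ntn1 and Myo9b), against 13.7% and 13.8% of all genes. The median log2 ratio of the 17 was -0.54 against -0.34 for all genes. Ntn1, the netrin ligand that attracts axons through DCC, had 10.4, 1.17 and 4.83 CPM from 49, 11 and 59 UMIs. For Enl-T1 over Enl-WT it passed the 5 CPM limit through Enl-WT alone, so it could be counted as lower but not as higher. Myo9b, a myosin that ROBO1 can bind, had a ratio of 0.363 (0.278 to 0.473). The tyrosine kinase gene Abl1 had 83.4, 35.4 and 32.7 CPM, and Enah, whose product extends actin filaments, had 258, 112 and 104 CPM. The treated comparison gave 0 of 15 higher and 2 lower (Sos1 and Dag1), against 5.84% and 7.62% of all genes. In ureteric epithelium 1 of 16 was higher and 4 lower in Enl-T1, against 13.3% and 10.47% of all genes. There 0 were higher and 1 lower in the treated comparison, against 7.77% and 10.4%. In stroma 1 of 17 was higher and 5 lower in Enl-T1, against 14.4% and 12.7% of all genes. There 2 were higher and 2 lower in the treated comparison, against 9.98% and 12.9%. Ntn1 in Foxd1 stroma-like cells had 242, 27.8 and 39.9 CPM. Among the paralogues, Robo4, the endothelial ROBO, had 93.6, 83.8 and 82.2 CPM in endothelial-like cells, and Robo3 had 8, 3 and 2 UMIs there.

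The genes of the GDNF domain that SLIT2 and ROBO2 are known to limit were counted beside the members. In NP1-like cells 3 of 7 measurable genes were lower in Enl-T1 (Gdnf, its co-receptor Gfra1 and the transcription factor Foxc1) and 1 higher (Foxc2), and 3 of 7 were higher in the treated comparison (Gdnf, Gfra1 and Foxc1), where 13.8% of all genes were lower in the first comparison and 5.84% higher in the second. In ureteric epithelium 2 of 3 were lower in Enl-T1 (Gfra1 and Ret) and 3 of 3 higher in the treated comparison (Gfra1, Ret and Spry1), against 10.47% and 7.77% of all genes. Tip-like cells made up 821 of 1537, 363 of 1062 and 525 of 915 cells of this sum, and the part of their share in these counts was not tested. In stroma 3 of 6 were lower (Gdnf, Foxc1 and Sall1) and 1 higher (Gfra1) in Enl-T1, against 12.7% and 14.4%, and 3 of 6 were higher in the treated comparison (Gdnf, Spry1 and Sall1), against 9.98%. Gdnf in NP1-like cells had 59.0, 25.0 and 55.4 CPM from 277, 235 and 677 UMIs, so the treated library was 2.21-fold of Enl-T1 (1.91 to 2.58). Robo2 in the same cells was 1.16-fold. In stroma Gdnf stood at 64.3, 12.9 and 51.2 CPM. Ret, the GDNF receptor of the ureteric tip, had 116, 55.1 and 85.7 CPM over the ureteric epithelium and 205, 140.1 and 131 CPM in tip-like cells, and within the latter neither comparison passed 1.5-fold.

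For each member the genes of most similar distribution were listed by Pearson correlation of log2(CPM + 10), centred within each library, over 35 points of 14 classes and 11014 genes. These points share libraries and classes, and the values describe likeness only. Robo2 was nearest to Foxd2 (0.87), Foxd2os (0.87) and Lpin2 (0.85), and Srgap1 to Sgip1 (0.87), Ndnf (0.86) and Nebl (0.85). Slit2 was nearest to Bri3bp (0.81), Stxbp6 (0.80) and Setdb1 (0.79), Slit3 to Arhgap10 (0.87), Rbpms2 (0.87) and B3galnt1 (0.85), and Robo1 to Il17rd (0.80), Ankrd10 (0.79) and 2610318N02Rik (0.78). Slit1 was nearest to Fgf8 (0.79), Shisa2 (0.78) and Dusp9 (0.77). Between members the correlation was 0.51 for Robo2 with Srgap1, 0.62 for Robo1 with Slit1, and 0.10 for the receptor Robo2 with its ligand Slit2.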

How the data were processed

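Kidneys of 3 groups, 1 library each, were profiled by 10x 3′ single-cell RNA-seq. The authors made the deposited matrices of raw UMI counts with Cell Ranger 6.1.2 on mm10, with 37221435, 63336586 and 76619303 counts in Enl-WT, Enl-T1 and the treated library, so depth differs with group. From these counts, barcodes were filtered as in the study, integrated and clustered with Seurat 5.3.0 (2000 variable genes, 30 and 20 principal components, resolution 0.5 and 0.8), leaving out 199 genes, among them the members. Classes were named from fixed marker lists and their leading 10 genes. UMIs were summed per class and library, with exact Poisson intervals for CPM, exact binomial-split intervals for ratios and Clopper-Pearson intervals for shares (SciPy 1.17.1). With 1 library per group no test was run. Genes under 5 CPM on average were not counted. Doublets were left in, and removal was an alternative. Every member was named; of the pathway list, the 4 genes furthest from the median in NP1-like cells and, beside the rule, other list genes chosen after their values were seen. The members and lists were chosen with earlier results of these data known. The ratio script was tested on simulated data.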

Additional observations from a re-analysis of the deposited data

Results flagged for a closer look

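For 3 members a ratio lay past 1.5-fold relative to all genes in opposite directions in different classes. With 1 library per group the differences were not tested. For Robo2, Enl-T1 over Enl-WT, the log2 ratio was 0.70 in distal tubule/loop-like and -2.02 in urothelium-like cells, 2.71 apart, the latter from 10 and 9 UMIs. For Slit2, Enl-T1 TDI-11055 over Enl-T1, it was 0.69 in ureteric trunk-like and -1.48 in NP2-like cells, 2.17 apart, the latter with the treated cells the shallowest of the class. For Srgap1, Enl-T1 over Enl-WT, it was 0.71 in Foxd1 stroma-like and -0.95 in distal tubule/loop-like cells, 1.66 apart, though within each of the 2 Foxd1 stroma-like clusters the ratio interval includes 1. The NP2-like, Foxd1 stroma-like and distal tubule/loop-like levels of these members rest on 25 to 219 UMIs per library. The marker sum of the Foxd1 stroma-like class was 3079, 1324 and 1918 CPM in Enl-WT, Enl-T1 and the treated library, and its part in the Srgap1 ratio was not tested.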

How the results depend on the processing

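No paired analysis was possible because each group has 1 library, and for the same reason no replicate could be left out. The Robo2 log2 ratio in NP1-like cells, Enl-T1 over Enl-WT (-1.54), was -1.30 with mitochondrial, ribosomal protein and haemoglobin genes out of the total, -1.20 with median-of-ratios size factors, -0.81 against genes of like exonic length and -1.34 in the Cited1 cluster alone, the last chosen after seeing the data. The same ratio for the treated library over Enl-T1 (0.21) was 0.48 against genes of like length, -0.0073 under the stricter cell filter, 0.45 with all variable genes in the clustering, 0.36 in cells with Xist and 0.43 in cells with Y-linked UMIs. The Slit2 log2 ratio in ureteric epithelium, Enl-T1 over Enl-WT (-1.74), was -1.60, -1.43 and -1.06 under the same 3 scalings, -1.97 in Xist cells and -1.47 in cells with Y-linked UMIs; the treated comparison (0.51) gave 0.70 against length, 0.15 under the stricter filter and 0.32 in cells with Y-linked UMIs. Slit3 in stroma (-0.73) gave -0.43 with size factors and -0.30 against length, and its treated comparison (-0.30) gave 0.16 under the stricter filter. The difference in the share of NP1-like cells with a Robo2 UMI (-31.9 points) was -5.82 without thinning and -25.1 under the stricter filter. The Slit2 ratio in distal tubule/loop-like cells, treated comparison, reversed to 0.17 under the stricter filter. Causes were not tested. Genes past 1.5-fold with no minimum CPM and with a minimum of 20 CPM numbered 9780 and 1539 in NP1-like cells for Enl-T1 over Enl-WT (main 2737), 7599 and 533 for the treated comparison (1300), 9220 and 1558 in ureteric epithelium (2495), 8523 and 917 treated (1868), 10127 and 1578 in stroma (2849), and 9697 and 1117 treated (2328). Without centring on the median gene, 15.7%, 18.1% and 19.5% of the genes past the fold in Enl-T1 over Enl-WT were higher in NP1-like, ureteric and stroma cells, against 49.8%, 56.0% and 53.1% with it. Of 933 values for other members and classes, 794 stayed within the counting interval of the main value, 138 lay outside it and 1 reversed. Of 84 values for the main results, 50 were counted as unmoved, 34 as moved and 0 as reversed, with counts of genes held to 1.5-fold in place of an interval. For a ratio, a change of sign was counted as reversed only where the main value was past 1.5-fold relative to all genes. Other changes of sign are in the unmoved or moved counts. The Scrublet caller marked 112 (2.14%), 13 (0.314%) and 2 (0.0726%) cells of Enl-WT, Enl-T1 and the treated library. It had not worked in the last 2, where the highest-scoring 137 and 61 cells were removed instead.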
